A study of Mus musculus with 3 samples.

Results

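The miR-17 to miR-92a microRNA (miRNA) cluster and its paralogs were examined in visceral white fat through 10 guide-arm miRNAs, the arms that usually carry the activity of their hairpins. They were picked by name from the 1251 mature miRNAs of the expression table: miR-17-5p, miR-18a-5p, miR-19a-3p, miR-20a-5p, miR-19b-3p and miR-92a-3p of the first cluster, miR-106b-5p, miR-93-5p and miR-25-3p of the miR-106b to miR-25 cluster, and miR-106a-5p of the X-linked cluster. All 10 had a row. Small RNA was sequenced from the epididymal fat of 3 C57BL/6J mice, numbered 1, 3 and 9. From 5 to 6 weeks of age they ate for 11 weeks a high-fat diet with 6.75% eicosapentaenoic acid (EPA, a long-chain omega-3 fat found in oily fish), with 45% of energy from fat, 20% from protein and 35% from carbohydrate, and they were fasted for 4 h before collection. No control diet was analysed here, so no value measures an effect of EPA, and that the samples come from separate mice rests on their titles and a note of the group size. Each p-value therefore covers the spread among these 3 libraries, part of which may be technical.

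miRNAs are short RNAs that pair with messenger RNAs through their seed, bases 2 to 8, and repress them. The miR-17 to miR-92a transcript gives 6 hairpins from a single primary RNA, is switched on by MYC and E2F factors and drives cell-cycle entry and survival. In preadipocytes it is known for speeding clonal expansion by repressing the retinoblastoma relative RBL2, also called p130. The miR-106b to miR-25 hairpins are processed from an intron of the replication gene Mcm7, and the X-linked cluster is a further copy of the same ancestral unit.

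The mature sequences of the 10 members are shown because their seeds sort them into 4 groups that cut across the clusters. They are given 5′ to 3′ from RefSeq on mouse build GRCm38.p6, with the seed in capitals, and all 10 names matched.
miR-17-5p: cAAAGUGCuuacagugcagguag
miR-20a-5p: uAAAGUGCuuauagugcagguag
miR-106a-5p: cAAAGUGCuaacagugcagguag
miR-106b-5p: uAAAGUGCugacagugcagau
miR-93-5p: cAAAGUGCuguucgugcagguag
miR-18a-5p: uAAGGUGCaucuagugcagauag
miR-19a-3p: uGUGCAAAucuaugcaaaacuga
miR-19b-3p: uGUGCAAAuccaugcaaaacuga
miR-25-3p: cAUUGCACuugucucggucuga
miR-92a-3p: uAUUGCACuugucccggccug
The miR-17 seed AAAGUGC is shared by 5 members, the seed AUUGCAC by miR-25-3p and miR-92a-3p, and GUGCAAA by miR-19a-3p and miR-19b-3p, while miR-18a-5p stands alone with AAGGUGC. Counted from 1 at the 5′ end, miR-106a-5p departs from miR-17-5p by the single substitution U10A, and miR-19b-3p from miR-19a-3p by U11C. miR-20a-5p departs from miR-17-5p by C1U and C12U.

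The 3 clusters lie on 3 chromosomes of GRCm38, the assembly of mm10 to which the reads were mapped. The arms of the miR-17 to miR-92a hairpins span 813 bases at chr14:115043684-115044496 on the plus strand, inside an exon of the long non-coding host gene Mir17hg. Those of miR-106b, miR-93 and miR-25 span 476 bases at chr5:138165332-138165807 on the minus strand, within Mcm7. There the miR-93 and miR-25 hairpins also overlap an annotated exon of Mcm7. The 6 hairpins of the X-linked cluster span 867 bases at chrX:52741697-52742563 on the minus strand, and no host gene on that strand covers them in the annotation. miR-19b-3p and miR-92a-3p are each encoded in both the chromosome 14 and the X-linked cluster with identical mature sequences, so their rows cannot be assigned to either locus.

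Values are the authors' log2 normalized counts, whose floor of 3.32 is 10 on the linear scale, so linear values below are given as normalized counts above that floor. The depth of each library is not given beyond the authors' figure of about 13.8 M mapped reads per sample, and the floor holds the miRNAs that these libraries did not detect. The 3 columns hold nearly a common set of values (the largest difference at any rank was 0.34 log2 units), which makes small spreads partly a matter of scale. Of all 1251 rows, 287 (22.9%) stood above the floor in the 3 mice and 888 at it in every mouse, and of the 10 members 7 stood above the floor in the 3 mice and 3 at it in all.

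The members ranged from among the most abundant miRNAs of this fat down to the floor, and the range lay within the clusters as much as between them. miR-92a-3p, the last miRNA of its transcript, led with a log2 level of 14.05, 14.02 and 14.05 in mice 1, 3 and 9, ranks 26, 27 and 26 of the table. miR-25-3p, which has the same seed, followed with 12.89, 12.59 and 12.74. miR-93-5p, a miR-17 seed miRNA that represses the cell-cycle inhibitor p21, came next with 12.12, 12.12 and 12.004. These 3 lay within ranks 26 to 53 in every mouse, and their own ranges did not overlap.

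The miRNA that gives the cluster its name was far lower. miR-17-5p stood at 7.04, 7.37 and 7.15 log2 units in mice 1, 3 and 9, ranks 181, 170 and 177. miR-106b-5p, which shares its seed, stood at 7.35, 7.20 and 7.20. Their ranges overlapped and miR-106b-5p was the higher in 2 of 3 mice.

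The lowest detected members were a second miR-17 seed miRNA of chromosome 14 and miR-19b-3p of the miR-19 seed group. miR-20a-5p had 4.66, 4.96 and 5.94 log2 units in mice 1, 3 and 9. miR-19b-3p had 4.31, 3.91 and 5.20, which is 9.83, 5.05 and 26.8 normalized counts above the floor. Both were highest in mouse 9, and their ranges overlapped, although miR-20a-5p was the higher in 3 of 3 mice.

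miR-18a-5p, miR-19a-3p and miR-106a-5p were listed at the floor in all 3 mice. In the order of levels the neighbours miR-92a-3p and miR-25-3p differed by 1.30 ± 0.14 log2 units (SD, n = 3) and miR-25-3p and miR-93-5p by 0.66 ± 0.17. The widest step was between miR-93-5p and miR-106b-5p, 4.83 ± 0.08. miR-106b-5p and miR-17-5p differed by 0.06 ± 0.24, less than the spread between mice, and miR-17-5p exceeded miR-20a-5p by 2.38, 2.41 and 1.21 in mice 1, 3 and 9. No test was made on the order, since levels of different miRNAs also carry unequal capture of their sequences.

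**Figure D1:**
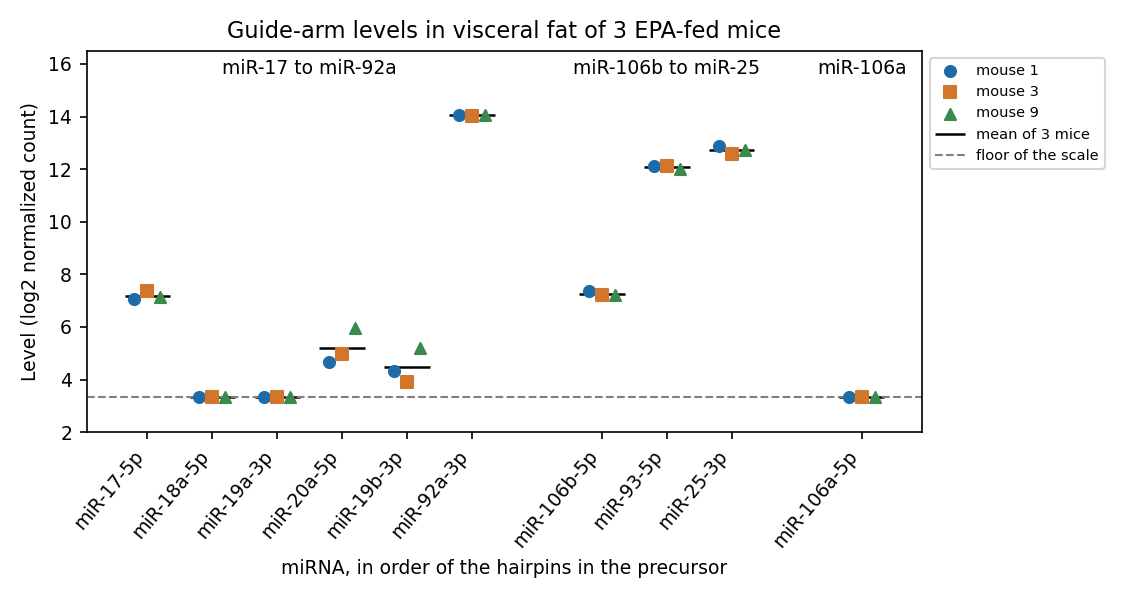
Log2 normalized count of each guide arm (vertical axis) for the 10 members in the order of their hairpins (horizontal axis), with 1 symbol per mouse, a line for the mean of 3 mice and a dashed line at the floor of 3.32. Within the chromosome 14 and the Mcm7 cluster the levels span several log2 units, with miR-92a-3p at 14.04 on average at the end of its cluster and miR-18a-5p, miR-19a-3p and miR-106a-5p at the floor.

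Among the 6 members of the miR-17 to miR-92a cluster miR-92a-3p held nearly all of the normalized value. The X-linked locus also encodes miR-92a-3p and miR-19b-3p, so the shares are those of miRNAs and not of a single transcript. Unequal capture of the sequences was not tested. It made up 99.1%, 98.9% and 98.8% of the summed linear value of the 6 members in mice 1, 3 and 9. miR-17-5p made up 0.803% ± 0.110 (SD, n = 3). miR-20a-5p made up 0.0895%, 0.126% and 0.300%, and miR-19b-3p 0.0575%, 0.0302% and 0.156% in the same mice, both highest in mouse 9. The order of the hairpins along the RNA was not the order of the levels, since miR-17-5p, the first of the 6, ranked second and the guide arms of the 2 hairpins after it were at the floor.

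The miR-106b to miR-25 cluster was shared out more evenly between its last 2 hairpins. miR-25-3p held 62.3%, 57.3% and 61.7% of the cluster's guide arms in mice 1, 3 and 9, and miR-93-5p 36.4%, 41.4% and 37.1%. miR-106b-5p, the listed guide of the first hairpin, held 1.26% ± 0.0186 (SD, n = 3). The 3p arm of that hairpin was the higher arm and is not in these sums. The most abundant guide of each of these clusters thus had the sequence of the last hairpin and the AUUGCAC seed, with the reservation that the X-linked locus also encodes miR-92a-3p.

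Summed by cluster, the chromosome 14 members held 0.711%, 0.696% and 0.714% of the whole table's linear value in mice 1, 3 and 9, and the Mcm7 members 0.507%, 0.446% and 0.459%. The log2 ratio of the first sum to the second was 0.49, 0.64 and 0.64, on average 0.59 ± 0.09 (SD, n = 3), above 0 in 3 of 3 mice. That direction rests on miR-92a-3p: without it the ratio was -6.37, -5.89 and -5.71 in the same mice. miR-92a-3p is also the member whose locus cannot be told, so the ratio is one of miRNAs and not of transcripts.

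By seed, the members were dominated by the miR-25 and miR-92a group. It held 1.02%, 0.944% and 0.988% of the table's value in mice 1, 3 and 9, against 0.197%, 0.198% and 0.184% for the 5 miRNAs of the miR-17 seed. The miR-19 group, the part of the cluster best known for driving lymphoma in mice, held 0.000409%, 0.000210% and 0.00112% in mice 1, 3 and 9, with a mean of 0.000578% that fell to 0.000309% without mouse 9. miR-18a-5p was at the floor and held none. All 10 members together held 1.18% ± 0.0385 of the summed value (SD, n = 3).

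Other miRNAs with these seeds added little. The AUUGCAC seed is found in 6 rows of the table, and of the 4 that are not members miR-92b-3p alone was detected, with 7.09, 5.74 and 6.19 log2 units in mice 1, 3 and 9. miR-32-5p, miR-363-3p and miR-367-3p, a miRNA of pluripotent cells, were at the floor. The AAAGUGC seed is found in 7 rows, of which the 2 others, miR-20b-5p and miR-6383, were at the floor, as was miR-18b-5p, the other row with the miR-18 seed.

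The rows that the X-linked cluster alone encodes were all at the floor. There are 10 of them, namely both arms of miR-106a, miR-18b, miR-20b and miR-363 and the passenger arms miR-19b-2-5p and miR-92a-2-5p, and 0 of 10 rose above it in any mouse. Of the 10 rows encoded by the chromosome 14 cluster alone, 3 were above the floor in all mice, 2 in some mice and 5 at it throughout. All 6 rows of the miR-106b to miR-25 cluster were above it in every mouse. Being at the floor is the usual state of a row, as 888 of the 1251 rows were at it in every mouse and 287 above it in all 3. Of the members with 2 loci, miR-92a-3p had a detected passenger arm from its chromosome 14 hairpin, miR-92a-1-5p, at 6.12, 5.92 and 6.13 log2 units in mice 1, 3 and 9, and that of its X-linked hairpin was at the floor. For miR-19b-3p the passenger arms of both hairpins, miR-19b-1-5p and miR-19b-2-5p, were at the floor in all mice.

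Each hairpin yields a 5p and a 3p arm, and the arms of the member hairpins could be compared within each library. Of 12 member hairpins, counting both copies of miR-19b and miR-92a, 6 had a larger arm that averaged 100 or more normalized counts over the floor and entered the test. All 6 passed limma's moderated one-sample test of the log2 ratio of 5p to 3p against 0 (two-sided, Benjamini-Hochberg adjusted over all 165 hairpins, threshold 0.05), 2 with the 5p arm higher and 4 with the 3p arm higher. Of all hairpins tested 97.6% passed, 54.5% with the 5p and 43.0% with the 3p arm higher, so passing sets the members apart in no way.

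The miR-106b hairpin had a small ratio that leaned away from its listed guide. The 5p arm, listed as its guide, had 7.35, 7.20 and 7.20 log2 units in mice 1, 3 and 9, and the 3p arm had 9.35, 8.68 and 8.79. The 3p arm was the higher in 3 of 3 mice, and the ranges did not overlap. The log2 ratio of 5p to 3p was -1.69 (SE 0.16, n = 3), with a limma adjusted p of 0.000595. The median size of that ratio over all hairpins tested was 5.44, and 13 of 165 were below 2 in size. The arms differ in sequence, with 42.9% G and C in the 5p and 63.6% in the 3p arm, and unequal capture of the 2 was not tested.

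The hairpin of miR-106b, at chr5:138165737-138165818 on the minus strand, is shown with both arms in capitals, since the arm not listed as its guide was the higher. Its 3p arm has another seed than any member, with the seed alone in capitals in the second line.
Mir106b hairpin: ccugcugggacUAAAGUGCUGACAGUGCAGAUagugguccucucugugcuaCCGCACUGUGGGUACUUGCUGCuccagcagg
miR-106b-3p: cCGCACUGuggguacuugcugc
miR-106b-3p exceeded miR-106b-5p, miR-17-5p and miR-20a-5p in every mouse, with a mean of 491.7 ± 130 normalized counts above the floor (SD, n = 3), at ranks 124 and 121 in mice 3 and 9 and higher still in mouse 1.

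The other tested hairpins leaned heavily to the listed guide. The log2 ratio of 5p to 3p was 7.06 (SE 0.21, n = 3) for miR-93 with a limma adjusted p of 1.19e-05, the 5p arm being higher in 3 of 3 mice. It was -8.63 (SE 0.13) for miR-25, with a limma adjusted p of 2.73e-06, and -7.98 (SE 0.13) for miR-92a-1, with 2.80e-06. For both the 3p arm was higher in 3 of 3 mice. The miR-92a-1 ratio sets its own 5p arm against a 3p row that 2 loci feed, and the X-linked copy was tested against the same 3p row with its 5p arm at the floor, so its ratio is not a second result.

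For miR-17 the ratio was 3.599 (SE 0.13, n = 3), with a limma adjusted p of 1.96e-05 and the 5p arm higher in 3 of 3 mice. miR-17-3p was at the floor in mouse 1 and at 3.83 and 3.62 log2 units in mice 3 and 9, so the size depends on the constant of the scale. It was 5.73 with a constant of 1 and 2.06 with a constant of 40. The remaining hairpins were too low to test. miR-18a had its 3p arm above the floor in mouse 9 alone (3.96 log2 units) and its 5p arm in no mouse, and both arms of miR-19a and miR-106a were at the floor.

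**Figure D2:**
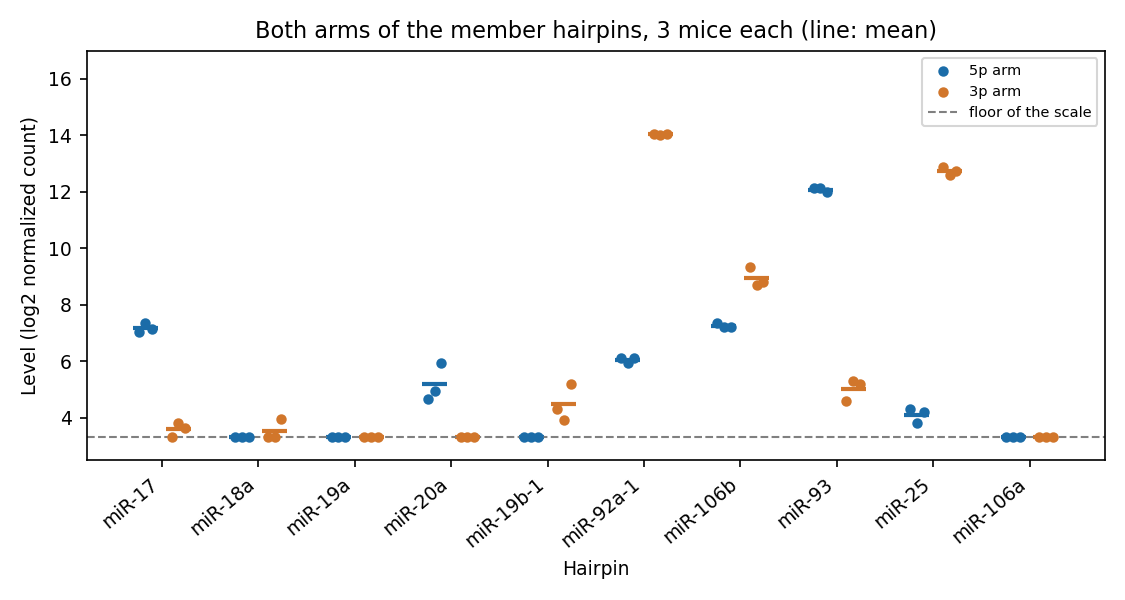
Log2 normalized count (vertical axis) of the 5p and the 3p arm of 10 member hairpins (horizontal axis), with a point per mouse, a line at the mean of 3 mice and a dashed line at the floor. miR-106b is the tested hairpin with the listed guide below its partner, at 7.25 for the 5p and 8.94 for the 3p arm, while the arms of miR-93, miR-25 and miR-92a-1 lie 7.06 to 8.63 log2 units apart.

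The 5 members that averaged 100 or more normalized counts over the floor varied little between mice. Their median SD was 0.09 log2 units, and it was 0.22 over the 193 rows at that level that were above the floor in 3 mice. The SD was 0.02 for miR-92a-3p, 0.07 for miR-93-5p, 0.09 for miR-106b-5p, 0.15 for miR-25-3p and 0.16 for miR-17-5p. miR-20a-5p with 0.67 and miR-19b-3p with 0.66 lay above the median of 0.42 over the 94 rows with a lower mean. These are descriptions with no test. Since the 3 columns hold nearly a common set of values, a miRNA that keeps its rank also keeps its value, so small SDs are partly a matter of scale.

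**Figure D3:**
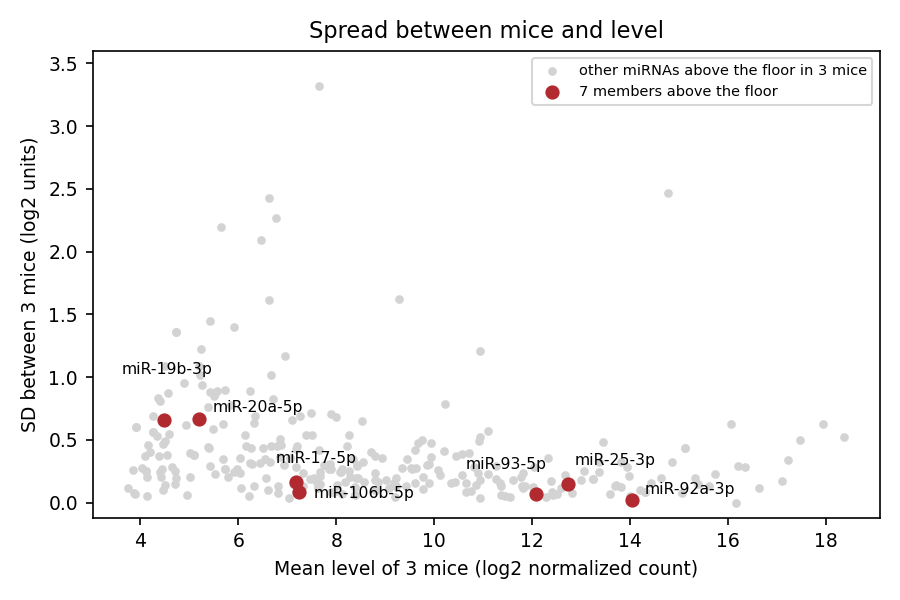
SD between 3 mice in log2 units (vertical axis) against the mean level in log2 normalized counts (horizontal axis) for the rows above the floor in 3 mice, with the 7 detected members in red. The 5 members above a level of 7 lie between 0.02 and 0.16, and miR-20a-5p and miR-19b-3p at 0.67 and 0.66.

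The members did not share a common ordering of the mice. miR-20a-5p and miR-19b-3p were highest in mouse 9, miR-106b-5p and miR-25-3p in mouse 1, miR-17-5p in mouse 3, miR-93-5p equally in mice 1 and 3, and miR-92a-3p equally in mice 1 and 9. The mean profile of the 10 members, each centred on its own mean, was -0.05, -0.08 and 0.13 log2 units in mice 1, 3 and 9. The 3 members at the floor add 0 to it, and its rise in mouse 9 comes from miR-20a-5p and miR-19b-3p, so it is mainly the profile of these 2 low members. Among 188 other miRNAs with a mean of at least 100, those with the smallest root mean square difference from it over the 3 mice were miR-652-3p (0.0241), miR-125a-5p (0.0299) and miR-345-5p (0.0311), where the median was 0.197. With 3 mice and so flat a profile this likeness is a description only.

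Marker miRNAs of other cell types also differed between the mice, and by sum the muscle list did so most. All 7 miRNAs of a list known from fat were above the floor. The summed striated muscle markers were 3912, 85898 and 67069 normalized counts in mice 1, 3 and 9. Nearly all of that sum was miR-133a-3p in every mouse. miR-133b-3p was also lowest in mouse 1, with 3.83, 9.49 and 9.65 log2 units in mice 1, 3 and 9. miR-1a-3p had 3.32, 5.53 and 3.44 in the same mice, and miR-206-3p left the floor in mouse 3 alone. The erythroid markers summed to 57416, 36440 and 33098 normalized counts in mice 1, 3 and 9. Within that list miR-144-5p was highest in mouse 3 instead, with 5.90, 6.08 and 4.52 log2 units in the same mice. The epithelial markers summed to 1664, 3771 and 910, although miR-200a-3p and miR-200b-3p of that list were highest in mouse 1. The endothelial markers summed to 14862, 21262 and 15707. The stromal markers summed to 33181, 31027 and 28771, although miR-199a-5p and miR-214-3p of that list were highest in mouse 9. The leukocyte markers, of which miR-155-5p was at the floor, summed to 10296, 9837 and 10956. Their sum was highest in mouse 9, as were miR-20a-5p and miR-19b-3p, but within the list miR-150-5p and miR-342-3p alone were highest there. miR-223-3p and miR-142-3p were highest in mouse 1 and miR-142-5p in mouse 3. Of these, miR-142-3p lay close to the floor, with 4.31, 3.32 and 3.83 log2 units in mice 1, 3 and 9. The part of tissue makeup in the members' levels was not tested, and in bulk tissue fewer cells of a type and less RNA per cell cannot be told apart.

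Base composition moved with the level of the members. miR-92a-3p had 57.1% G and C, miR-93-5p 52.2% and miR-25-3p 50%, the 3 highest of the 10. miR-19a-3p had 34.8%, and miR-19b-3p and miR-20a-5p 39.1% each, the 3 lowest. Across the 10 members, with the 3 at the floor included, Spearman's rho between G and C content and mean level was 0.69 and Pearson's r 0.81. Across the 309 miRNAs above the floor in at least 1 mouse with a RefSeq sequence rho was -0.14 and r -0.16. The points share the same 3 libraries and members of a seed group share most of their letters, so the values describe these miRNAs, and the part of base composition in the levels was not tested. miR-106a-5p and miR-17-5p had the same content, 47.8%, with the first at the floor and the second at 7.19 on average.

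**Figure D4:**
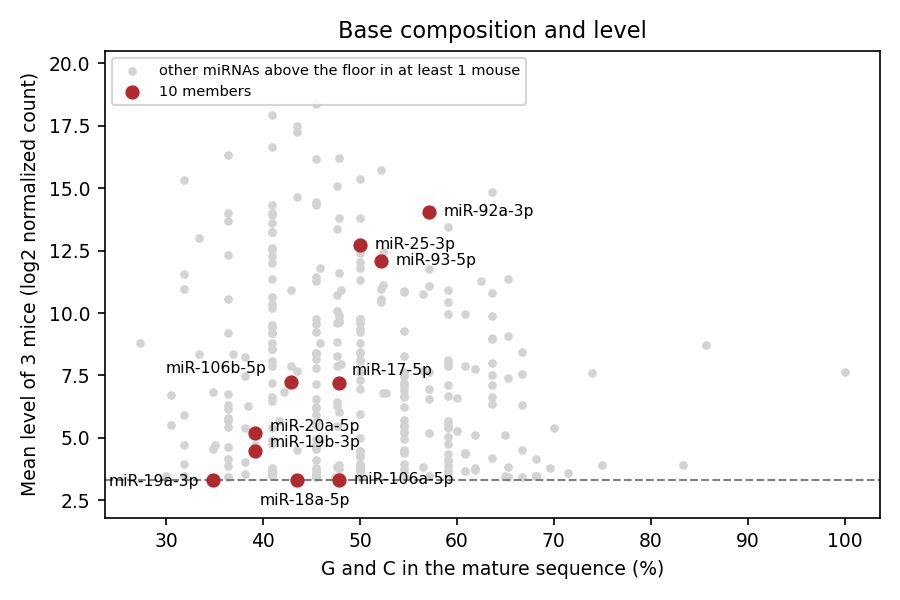
Mean log2 normalized count of 3 mice (vertical axis) against the percentage of G and C in the mature sequence (horizontal axis), with the 10 members in red, other miRNAs above the floor in at least 1 mouse in grey and a dashed line at the floor. The members climb from miR-19a-3p (34.8%, at the floor) to miR-92a-3p (57.1%, 14.04), with rho 0.69 over 10 members, 3 of them at the floor. Over the 309 miRNAs with a sequence that were above the floor in at least 1 mouse rho was -0.14.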

How the data were processed

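Per the labels' protocols, libraries followed Illumina's small RNA method. The table the authors deposited holds a log2 value for each mature miRNA in each mouse. Per the series' design text, reads went through the Gunaratne next-generation pipeline, about 13.8 M per sample mapped to mm10 (also named per the submitters' processing notes), and counts were normalized to total usable reads with 40 counts added. Since the lowest deposited value equals a linear 10, and 260 values fall from there to 40, the constant taken here was 10. At 121 of the 336 ranks above the floor the values of the 3 mice were equal within 1e-06. Scaling to total reads does not by itself give such equal values, and no further step is described in the sources used here. Levels and shares may therefore not be proportional to reads. For the aligner and the miRNA annotation, the name is not given in the sources used here.

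Linear values are the power of 2 minus 10, and shares are percentages of a mouse's summed linear value. Of 484 hairpins with both arms listed, the 165 whose larger arm averaged at least 100 were tested with limma 3.58.1 (R 4.3.3) without a prior trend. A copy such as miR-92a-2 took the shared row of the arm listed without a copy number, so some hairpins share a row. Levels, sums and spreads were described by mean and SD.

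Tables were made in Python 3.11.15 with pandas 2.3.3 and numpy 2.4.6, correlations with scipy 1.17.1 and plots with matplotlib 3.10.9. Sequences and positions come from RefSeq, and host genes from GENCODE M21. The members and the lists (other arms, X-linked cluster, seed relatives, cell type markers, 3 nearest profiles) were chosen with earlier results of these data known. The miRNAs named are those of these lists, and miR-6383, found by its seed, was named after its values were seen. Alternatives were constants of 1 and 40, other filters, median-ratio scaling, other priors, the floor left in, identical rows counted once and leaving out each mouse.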

Additional observations from a re-analysis of the deposited data

How the results depend on the processing

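The 6 member hairpins kept their direction and an adjusted p below 0.05 by limma in all 58 alternative fits that gave a value, with a highest adjusted p of 0.0113, for miR-106b without mouse 3. In the main fit 97.6% of all hairpins tested passed, and of the 6 miR-92a-2 shares its 3p row with miR-92a-1. miR-106b ranged from -1.80 to -1.54 when a mouse was left out. With a larger arm of at least 1000, which leaves fewer hairpins to test (miR-17 and miR-106b among those left out), 57 hairpins passed with the 5p and 36 with the 3p arm higher. The main fit had 90 and 71, and no share of those tested is given for the stricter filter. The log2 ratio of the miR-17 to miR-92a sum over the miR-106b to miR-25 sum turned to -5.99 without miR-92a-3p and to -6.10 without miR-92a-3p and miR-19b-3p, both tried after the data were seen. The miR-19 share was 0.00140% with the floor left in the linear values. Of 42 alternative mean levels of the 7 detected members 37 lay within 1 SD, and the other 5 came from constants of 1 or 40. Leaving out 1 of 3 mice cannot move a mean by as much as 1 SD. Those alternatives were bound to lie within it, and their share of the 37 says nothing about stability. Of the 10 members, 7 were above the floor in all mice, 6 by at least 10 and 5 by at least 100 normalized counts. No paired analysis was possible because there is a single group and no second one to pair with, the arm ratios being taken within each library. The depth of each library was not given, and the 3 members at the floor were not detectable here, which does not show that they are absent.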

Other observations

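Some rows of the table held the same values as another row in all 3 mice within 1e-06, as 66 of the 363 rows above the floor in at least 1 mouse did. Among them were miR-19b-3p, equal to miR-511-5p, and miR-25-5p, equal to miR-5117-3p. Both pairs lay close to the floor. The cause was not tested.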
